A study of Mus musculus with 8 samples.

Results

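The transcripts of 10 genes that mark undifferentiated spermatogonia were followed through sorted spermatocyte fractions of MFN2 WT and MFN2 cKO mice. The genes were *Zbtb16*, *Gfra1*, *Id4*, *Nanos2*, *Nanos3*, *Lin28a*, *Sall4*, *Etv5*, *Utf1* and *Foxo1*, chosen by name. Each of the 10 had a single row among the 54532 genes of the expression table.

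Undifferentiated spermatogonia include the stem cells of the testis. They divide on the basement membrane of the seminiferous tubule, where Sertoli cells supply GDNF, and GFRA1 on the spermatogonium binds GDNF and signals together with the RET kinase. Downstream of this signal and beside it, a set of transcription factors and RNA-binding proteins holds the cells back from differentiation. Most of these genes are known to be turned down once spermatogonia commit to meiosis, so low levels of their transcripts would be looked for in purified spermatocytes.

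RNA was sequenced from leptotene and zygotene spermatocytes (L/Z) and from pachytene spermatocytes (P) of C57BL/6J mice at postnatal day (PD) 24 and PD 52. Both genotypes carried loxP sites around exon 6 of *Mfn2*, with Mfn2 loxp/loxp in the libraries called MFN2 WT. The MFN2 cKO libraries came from Mfn2 loxp/loxp mice that also carried Stra8-Cre, which acts in male germ cells after birth. Each of the 8 groups had 1 library, so the libraries formed 4 matched pairs for genotype, 4 for stage and 4 for age. The methods say that controls could carry either 1 or 2 floxed alleles, whereas the labels give loxp/loxp. Animals per library are not stated. Cells had been separated by size in a BSA gradient and judged by diameter and morphology, so a fraction could hold other cells.

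Libraries held between 14340665 and 20379950 reads on genes. *Mfn2* was lower in MFN2 cKO in all 4 pairs. MFN2 WT held 62.2 to 97.5 FPKM (fragments scaled for gene length and library size) and MFN2 cKO 34.3 to 50.1 FPKM of it. Its FPKM ratio was 0.418 in L/Z and 0.513 in P at PD 24, 0.491 in L/Z at PD 52 and 0.805 in P at PD 52. Its common change was -0.87 ± 0.19 (SE, 4 pairs; limma, adjusted p = 0.27). Values per gene do not show exon 6 by itself. Of 12 leptotene and zygotene genes, 3 (*Dmc1*, *Rec8* and *Smc1b*) were called lower in P, as the labels have it. Another 5 (*Sycp2*, *Sycp3*, *Hormad1*, *Spo11* and *Meiob*) were called higher in P. The list summed to 366 to 422 FPKM in L/Z and 424 to 503 in P. Of 10 pachytene genes, 3 (*Piwil1*, *Pou5f2* and *Mybl1*) were called higher in P and 2 (*Pgk2* and *Cdc25c*) lower. *Ldhc* and *Hspa2*, highest in mean FPKM of that list, were not called. *Piwil1* was at 168 to 278 FPKM in P and at most 40.5 in L/Z, and *Pou5f2* at 44.2 to 63.3 against at most 4.37. Both, and *Dmc1*, *Rec8*, *Hormad1*, *Spo11*, *Meiob*, *Mybl1* and *Cdc25c*, were named after their values were seen. Genes of round and elongating spermatids were highest in the L/Z libraries of PD 52, at 9985 FPKM summed in MFN2 WT and 18858 in MFN2 cKO, against 92.1 to 4484 in the other 6 libraries.

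Promoter sequence was available for 8 of the 10 genes in the RefSeq table on GRCm38.p6, in windows of 250 bases before the start. The following windows belong to *Id4*, the member that was higher in P, and to *Lin28a*, *Gfra1* and *Nanos3*, which were lower in P. These windows do not sit exactly before the gene coordinates given below. The *Nanos3* and *Gfra1* windows lie inside those coordinates, the *Lin28a* window reaches into them, and the *Id4* window ends short of them. Capitals mark matches, on either strand, to 6 short motifs.
Id4, chr13:48260866-48261115, forward strand: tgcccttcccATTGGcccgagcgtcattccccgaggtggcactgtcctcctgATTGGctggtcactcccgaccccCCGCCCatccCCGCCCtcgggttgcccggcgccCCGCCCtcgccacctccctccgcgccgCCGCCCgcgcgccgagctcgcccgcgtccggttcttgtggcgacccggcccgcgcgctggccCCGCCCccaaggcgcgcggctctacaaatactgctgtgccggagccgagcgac
Lin28a, chr4:134018817-134019066, reverse strand: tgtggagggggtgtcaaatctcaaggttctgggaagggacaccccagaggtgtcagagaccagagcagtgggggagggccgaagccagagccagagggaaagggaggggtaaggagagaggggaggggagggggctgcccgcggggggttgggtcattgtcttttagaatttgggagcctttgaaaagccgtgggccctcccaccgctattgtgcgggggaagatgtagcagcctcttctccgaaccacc
Gfra1, chr19:58455399-58455648, reverse strand: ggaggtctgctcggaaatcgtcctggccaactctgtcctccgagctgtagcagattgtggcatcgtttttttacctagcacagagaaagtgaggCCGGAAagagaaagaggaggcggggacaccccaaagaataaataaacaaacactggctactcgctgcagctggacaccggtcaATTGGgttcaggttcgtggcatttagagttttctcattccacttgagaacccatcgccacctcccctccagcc
Nanos3, chr8:84176553-84176802, reverse strand: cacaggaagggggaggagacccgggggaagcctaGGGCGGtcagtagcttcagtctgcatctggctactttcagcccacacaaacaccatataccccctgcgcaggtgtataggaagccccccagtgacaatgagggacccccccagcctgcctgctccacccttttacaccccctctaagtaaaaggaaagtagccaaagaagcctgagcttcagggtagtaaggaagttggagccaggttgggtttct
The motifs searched were the GC box, spelled GGGCGG, the box spelled CCAAT, the site of ETS factors, spelled CCGGAA, the forkhead site, spelled TGTTTAC, the E-box, spelled CACGTG, and the TATA box, spelled TATAAA. The *Id4* window held 5 GC boxes and 2 CCAAT boxes, and 75.6% of its bases were G or C. *Nanos3* had 1 GC box, *Gfra1* had 1 ETS motif and 1 CCAAT box, and none of the 6 motifs was found in the *Lin28a* window. Among all 32851 promoter windows of this length, 32.7% held a GC box, 33.8% a CCAAT box and 12.03% the ETS motif. Of the 8 members, 5 held a GC box and 5 a CCAAT box. The E-box, present in 6.02% of all windows, was in none of the 8. The forkhead motif (3.17% of all windows) was in *Etv5* alone and the TATA box (12.4%) in *Nanos2* alone. A match is a stretch of letters and was not tested for binding.

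FPKM is scaled for gene length, so levels can be set side by side between genes. In the sentences on single genes, the 4 values of a genotype are given in the order L/Z PD 24, P PD 24, L/Z PD 52 and P PD 52. By median FPKM over the 8 libraries the order was *Id4* (7.58), *Etv5* (4.61), *Lin28a* (4.14), *Zbtb16* (3.20), *Sall4* (2.51), *Nanos3* (2.05), *Foxo1* (1.79), *Gfra1* (1.66), *Utf1* (1.52) and *Nanos2* (0.0172). The ranges of each gene and its neighbour in this order overlapped except between *Utf1* and *Nanos2*. *Id4* ranked 6520th and *Gfra1* 13466th by median among all listed genes. Of the 10, 9 passed 1 FPKM in at least 1 library and were tested, and 6 were above 1 FPKM in all 8 libraries.

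**Figure D1:**
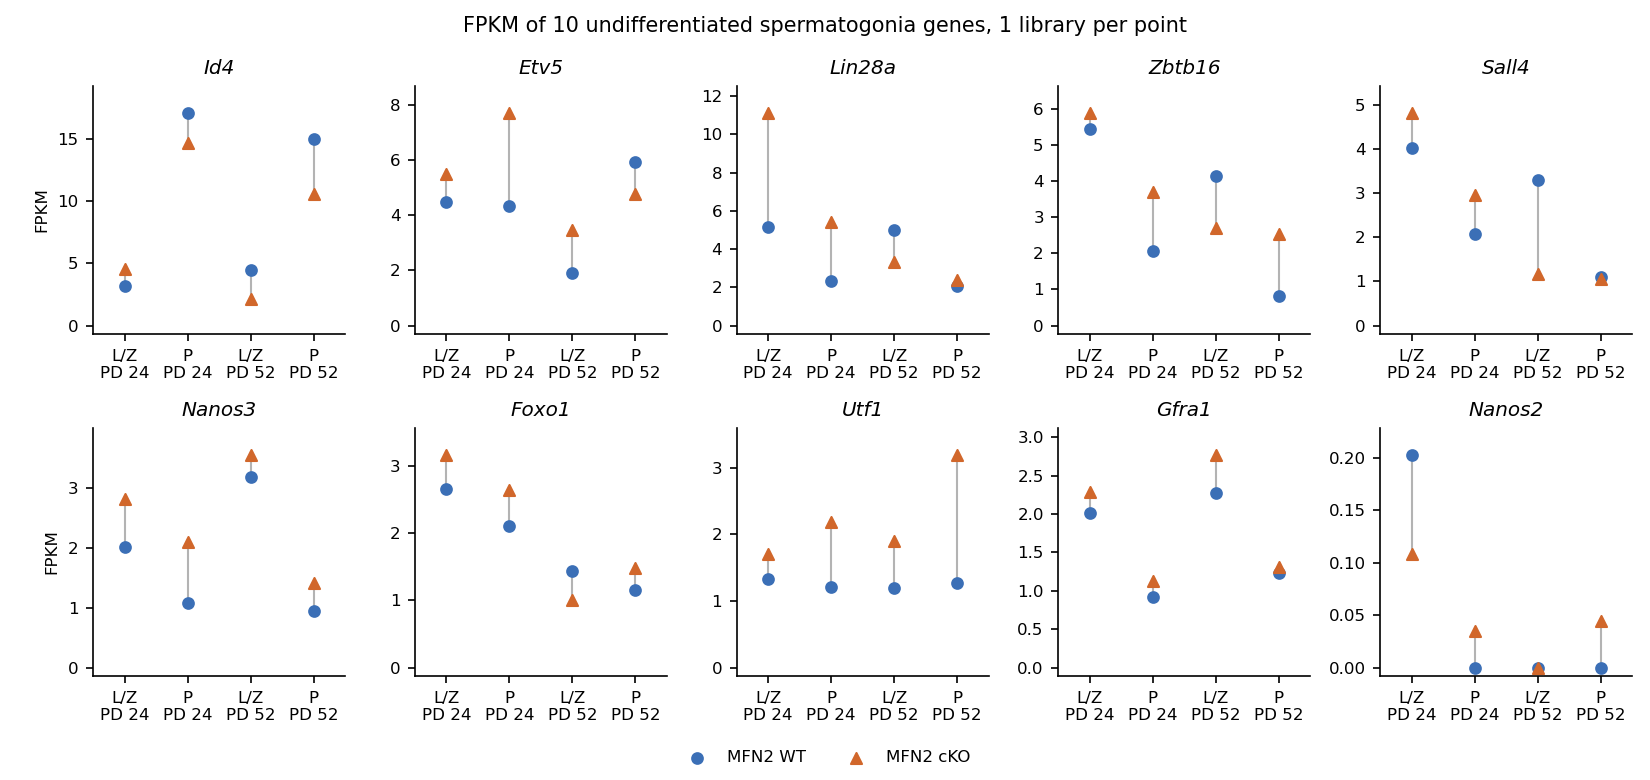
FPKM (vertical axis, linear, its own scale for each gene) of the 10 genes in the 4 pairs of stage and age (horizontal axis). Each circle is the MFN2 WT library and each triangle the MFN2 cKO library of a pair, joined by a line, with no replicates and hence no error bars; *Id4* is high in the P libraries (10.6 to 17.2 FPKM) and *Utf1* is higher in MFN2 cKO in every pair.

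*Gfra1* (ENSMUSG00000025089, chromosome 19, 58235604 to 58455909, reverse strand, GRCm38) encodes the GDNF co-receptor. It was at 2.01, 0.914, 2.27 and 1.23 FPKM in MFN2 WT and at 2.29, 1.13, 2.77 and 1.31 FPKM in MFN2 cKO. The 4 L/Z libraries were all above the 4 P libraries.

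Of the transcription factors that act with the GDNF signal, *Etv5* (ENSMUSG00000013089, chromosome 16, 22381309 to 22439719, reverse strand) encodes an ETS factor that is also known from Sertoli cells. It was at 4.48, 4.35, 1.89 and 5.92 FPKM in MFN2 WT and at 5.48, 7.72, 3.47 and 4.75 FPKM in MFN2 cKO. *Id4* (ENSMUSG00000021379, chromosome 13, 48261228 to 48266026, forward strand) encodes a helix-loop-helix protein that lacks a DNA-binding region and marks stem cells among spermatogonia. It was at 3.18, 17.2, 4.46 and 15.0 FPKM in MFN2 WT and at 4.57, 14.7, 2.12 and 10.6 FPKM in MFN2 cKO. The lowest *Id4* value in P was above the highest in L/Z (10.6 against 4.57 FPKM).

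The remaining transcription factors had median levels below that of *Etv5*. *Zbtb16* (ENSMUSG00000066687, chromosome 9, 48654297 to 48836222, reverse strand) encodes PLZF, a zinc finger repressor needed for self-renewal. It was at 5.45, 2.05, 4.15 and 0.814 FPKM in MFN2 WT and at 5.89, 3.69, 2.71 and 2.54 FPKM in MFN2 cKO, so its lowest value was in P of MFN2 WT at PD 52. *Sall4* (ENSMUSG00000027547, chromosome 2, 168748332 to 168767943, reverse strand), a zinc finger factor and partner of PLZF, was at 4.01, 2.07, 3.28 and 1.10 FPKM in MFN2 WT and at 4.82, 2.95, 1.16 and 1.05 FPKM in MFN2 cKO. *Foxo1* (ENSMUSG00000044167, chromosome 3, 52268336 to 52353221, forward strand), a forkhead factor that PI3K and AKT signaling keeps out of the nucleus, was at 2.66, 2.10, 1.44 and 1.15 FPKM in MFN2 WT and at 3.17, 2.64, 1.00 and 1.49 FPKM in MFN2 cKO. All 4 *Foxo1* values of PD 24 were above all 4 of PD 52.

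*Lin28a* (ENSMUSG00000050966, chromosome 4, 134003330 to 134018841, reverse strand) encodes an RNA-binding protein that blocks the maturation of let-7 microRNAs. It was at 5.18, 2.31, 4.98 and 2.07 FPKM in MFN2 WT and at 11.1, 5.41, 3.30 and 2.38 FPKM in MFN2 cKO. The *Lin28a* value in L/Z of MFN2 cKO at PD 24 stood above the other 7 libraries, which reached at most 5.41 FPKM.

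*Nanos3* (ENSMUSG00000056155, chromosome 8, 84173731 to 84185217, reverse strand) and *Nanos2* (ENSMUSG00000051965, chromosome 7, 18987400 to 18988962, forward strand) encode zinc finger proteins that bind RNA, and NANOS2 keeps stem cells undifferentiated. *Nanos3* was at 2.005, 1.07, 3.18 and 0.944 FPKM in MFN2 WT and at 2.81, 2.09, 3.55 and 1.42 FPKM in MFN2 cKO, on 14 to 48 reads. *Nanos2* had 11 reads over all 8 libraries. It had 6 reads in L/Z of MFN2 WT at PD 24 (0.203 FPKM), 3 in L/Z of MFN2 cKO at PD 24 (0.108 FPKM), 1 in P of MFN2 cKO at each age (0.0344 and 0.0441 FPKM) and 0 in the other 4. A count of 0 allows up to 3 reads, or 0.0951 to 0.131 FPKM in those 4 libraries. In MFN2 WT at PD 24 the change from L/Z to P, on 6 and 0 reads, had a 95% counting interval from -0.27 to -0.03 in log2(FPKM + 1), and in every other pair with a read the interval included 0.

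*Utf1* (ENSMUSG00000047751, chromosome 7, 139943789 to 139945112, forward strand) encodes a chromatin-bound protein of early spermatogonia. It was at 1.34, 1.21, 1.20 and 1.27 FPKM in MFN2 WT and at 1.70, 2.19, 1.90 and 3.20 FPKM in MFN2 cKO, on 22 to 57 reads. Its 4 MFN2 WT values lay close together, and each MFN2 cKO value was above them.

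The first comparison asked how the genes differed between the 2 stages. Changes are differences in log2(FPKM + 1), a scale that understates the change of low genes. In limma, with the genotype-and-age pair as a block and calls at an adjusted p under 0.05, 5 of the 9 tested members were called lower in P than in L/Z and 1 was called higher. Over all 21175 genes tested, 16% were called lower and 12.4% higher. The median change of the 9 was -0.59, against -0.04 over all genes. In such bulk samples, fewer cells of a type and less RNA per cell cannot be told apart.

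*Id4* rose by 1.77 ± 0.16 (SE, 4 pairs; limma, adjusted p = 0.0021), and its FPKM in P was 3.21 to 5.40 times that in L/Z. P and L/Z did not overlap for *Id4*, which was so, with P higher, for 10% of all genes. *Gfra1* fell by 0.64 ± 0.14 (limma, adjusted p = 0.016), with FPKM ratios of 0.455 to 0.542. It was the single member whose P libraries all lay below the L/Z libraries, as 5.63% of all genes did. *Lin28a* fell by 0.78 ± 0.16 (limma, adjusted p = 0.012) and *Nanos3* by 0.71 ± 0.18 (limma, adjusted p = 0.024). *Zbtb16* fell by 0.80 ± 0.24 (limma, adjusted p = 0.044) and *Sall4* by 0.59 ± 0.18 (limma, adjusted p = 0.048). These 5 genes were lower in P in 4 of 4 pairs.

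The fall differed in size between pairs. In MFN2 WT at PD 52, *Zbtb16* in P was 0.196 times its level in L/Z (69 against 328 reads), a log2 change of -1.50 with a 95% counting interval from -1.70 to -1.30. In MFN2 cKO at PD 52 the ratio was 0.940 and the change -0.07, from -0.27 to 0.14. *Sall4* gave ratios of 0.336 and 0.900 in the same 2 pairs. Whether the stage change differed between genotypes was not tested. Counting intervals are exact binomial (Clopper-Pearson) and cover counting error only.

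*Etv5* had a mean change of 0.50, with a 95% interval from -0.00 to 1.01 (limma, adjusted p = 0.12), and ranged between pairs from -0.03 to 1.26. *Utf1* had a mean change of 0.19, from -0.19 to 0.57, and *Foxo1* one of -0.08, from -0.45 to 0.30. These 3 genes were not called, and the intervals leave room for changes of either sign.

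*Id4* was called in each alternative fit. *Zbtb16* and *Sall4* were not called with a pseudocount of 0.1 (limma, adjusted p = 0.056 and 0.057), with total-read scaling (0.063 and 0.067) or with no FPKM filter (0.13 for both). *Gfra1* (0.051) and *Nanos3* (0.080) were not called with no filter either, and *Lin28a* (limma, adjusted p = 0.059) and *Sall4* (0.094) were not called without the pair block. The members called in these fits numbered 4, 4, 2 and 4, in place of 6. Without the MFN2 WT PD 24 pair 1 member was called, without the MFN2 WT PD 52 pair 3, without the MFN2 cKO PD 24 pair 4, and without the MFN2 cKO PD 52 pair 4.

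**Figure D2:**
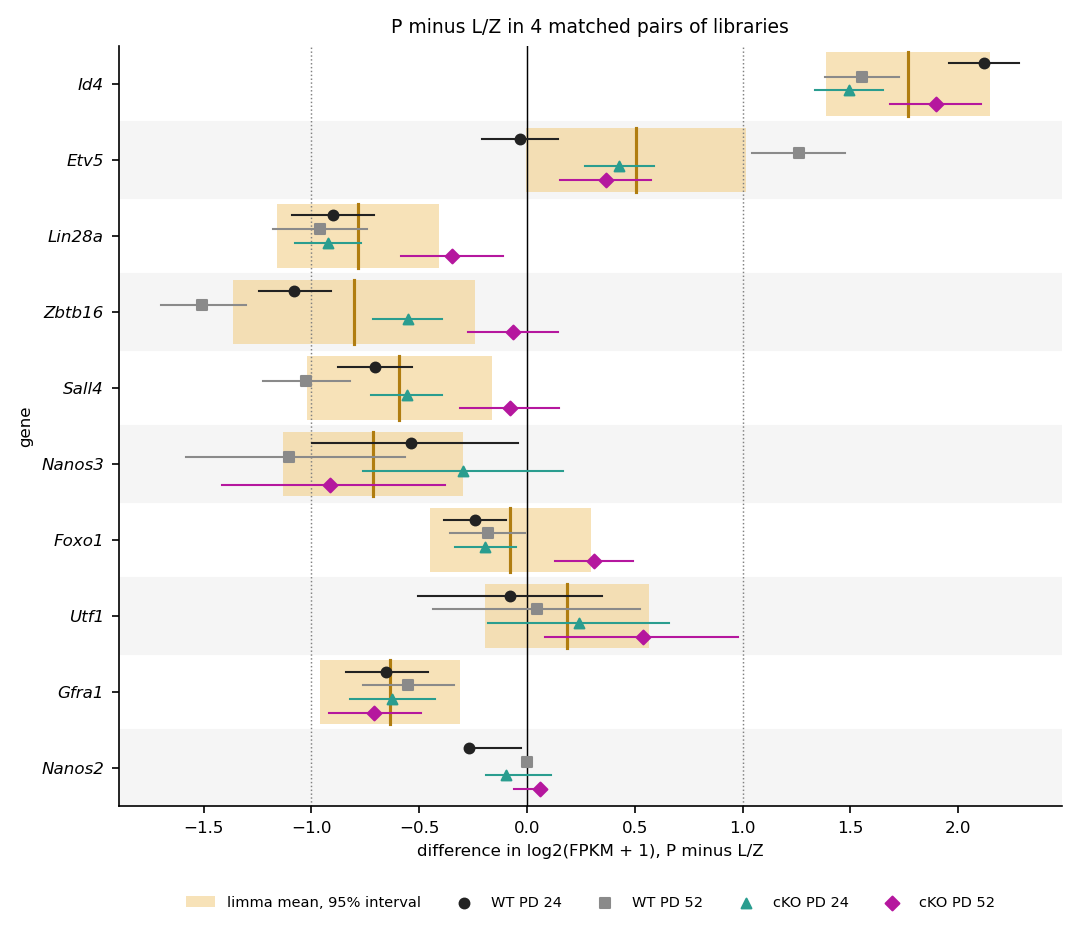
Difference in log2(FPKM + 1), P minus L/Z (horizontal axis), for each of the 10 genes (vertical axis). Points are the 4 pairs of libraries with their 95% counting intervals, the band is the limma mean with its 95% interval, and dotted lines mark a 2-fold change; *Id4* lies at 1.49 to 2.12 in all pairs and *Gfra1* at -0.71 to -0.55.

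Genes of Sertoli cells moved with the stage. All 12 genes of the list were called higher in P, and their summed FPKM was 336 to 906 in P and 29.7 to 292 in L/Z, with none of the 12 at 0 in any library. Over the 8 libraries the log2 summed level of the list had a Pearson r of 0.89 with *Etv5*, 0.77 with *Id4* and -0.82 with *Gfra1*. These are descriptions over 8 libraries that differ in stage. The next values are in the order MFN2 WT and MFN2 cKO at PD 24, then MFN2 WT and MFN2 cKO at PD 52. In L/Z the Sertoli sum was 292, 237, 29.7 and 82.1 FPKM. *Id4* was there at 3.18, 4.57, 4.46 and 2.12 FPKM and *Etv5* at 4.48, 5.48, 1.89 and 3.47 FPKM. In P the Sertoli sum was 725, 906, 737 and 336 FPKM. *Id4* was there at 17.2, 14.7, 15.0 and 10.6 FPKM and *Etv5* at 4.35, 7.72, 5.92 and 4.75 FPKM. The part of Sertoli cell RNA in the *Id4* and *Etv5* values was not tested. Macrophage genes (8 of 8 called lower in P, summed FPKM 7.30 to 45.3 in P and 40.5 to 265 in L/Z), peritubular myoid genes (4 of 5 tested called lower, 11.3 to 40.7 and 51.6 to 168) and spermatid genes (9 of 10 called lower, and 10 of 10 lower in each of the 4 pairs, 92.1 to 4484 and 330 to 18858) moved with the 5 members that fell, and their part in those falls was not tested.

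**Figure D3:**
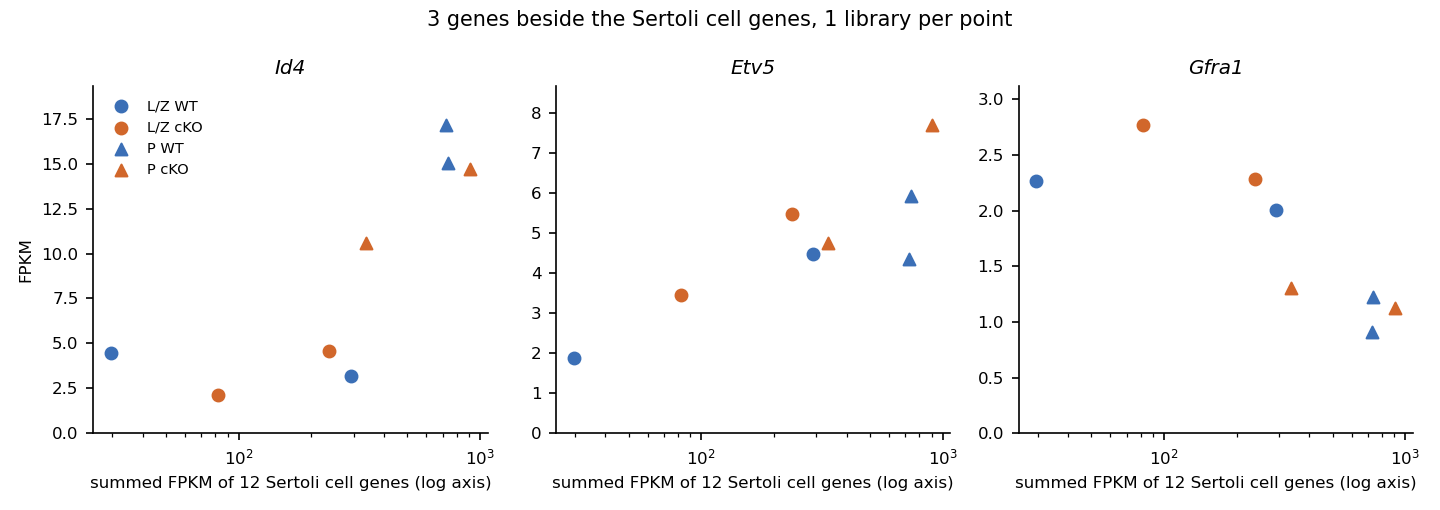
FPKM of *Id4*, *Etv5* and *Gfra1* (vertical axes, linear) against the summed FPKM of 12 Sertoli cell genes (horizontal axis, log scale), 1 point per library. Circles are L/Z, triangles P, blue MFN2 WT and orange MFN2 cKO; the P libraries lie to the right (336 to 906), with high *Id4* and low *Gfra1*.

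The second comparison asked whether the genes differed between genotypes within each stage and age. With 1 library on each side there is no replicate check within a pair. On the log2(FPKM + 1) scale none of the 10 members reached a 2-fold change in any pair, against 10.5% of all genes in L/Z at PD 24, 8.08% in P at PD 24, 7.95% in L/Z at PD 52 and 11% in P at PD 52. The count depends on the constant added. With a pseudocount of 0.1 the members numbered 1, 1, 2 and 2 in the same order, and the shares of all genes were 17.7%, 13.9%, 15% and 19.3%.

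At PD 24, 9 of the 10 genes were higher in MFN2 cKO in L/Z, 5 of them with a counting interval above 0. In P 8 were higher, 7 of them with an interval above 0, and *Nanos2* had 1 read against 0. Of all genes tested in those pairs, 57.03% were higher in L/Z and 37.9% in P. Counting intervals were computed for the members and *Mfn2* alone, so the counts of intervals above 0 have no share of all genes beside them. Such intervals cover counting error only and are not calls. The median change of the 10 was 0.21 in L/Z and 0.45 in P, against 0.08 and -0.10 over all genes tested. *Lin28a* gave the largest change in both fractions. It was 2.15 times the MFN2 WT level in L/Z (790 against 391 reads), a change of 0.97 with a counting interval from 0.82 to 1.13. In P it was 2.34 times as high (402 against 186 reads), a change of 0.95 from 0.76 to 1.14. *Etv5* (1.77 times), *Zbtb16* (1.80 times), *Nanos3* (1.95 times) and *Utf1* (1.81 times) were higher in P of MFN2 cKO with counting intervals above 0, while in L/Z the ratio was 1.22 for *Etv5*, 1.08 for *Zbtb16* and 1.27 for *Utf1*, and *Nanos3* had 46 against 35 reads. *Id4* was the gene that was lower in P, at 0.855 times the MFN2 WT level. *Nanos2* had 3 reads against 6 in the L/Z pair, with an interval that included 0.

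At PD 52 the signs were mixed. Of all genes tested in the pairs of this age, 52.95% were higher in MFN2 cKO in L/Z and 45.6% in P. In L/Z, MFN2 cKO exceeded MFN2 WT for 4 genes and fell short of it for 5, and the median change was -0.14, against 0.02 over all genes. *Sall4* was 0.354 times its MFN2 WT level (94 against 272 reads), a change of -0.99 with a counting interval from -1.19 to -0.78. *Id4* (0.474 times), *Zbtb16* (0.652 times), *Lin28a* (0.663 times) and *Foxo1* (0.695 times) were also lower, with intervals below 0. *Etv5* was 1.84 times as high in the same pair. In P, 6 genes were higher in MFN2 cKO, 3 of them with an interval above 0, 3 were lower, 2 of them with an interval below 0, and *Nanos2* had 1 read against 0. The median change was 0.10, against -0.05 over all genes. Here too the counts of intervals above or below 0 have no share of all genes beside them and are not calls. *Zbtb16* was 3.12 times as high in MFN2 cKO (195 against 69 reads), a change of 0.97 from 0.75 to 1.17. *Utf1* was 2.52 times as high (57 against 25 reads), a change of 0.89 from 0.43 to 1.32.

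Over the 4 pairs, limma with the stage-and-age pair as a block called none of the 9 tested members, against 0.137% of all genes (29, of which 28 were higher in MFN2 cKO). At an unadjusted p under 0.05 there was 1 member, *Utf1*, against 6.93% of all genes, and limma-voom on recovered reads also called 0. *Utf1* was higher by 0.51 ± 0.17 (SE, 4 pairs; limma, adjusted p = 0.57), and higher in 4 of 4 pairs. Its MFN2 cKO libraries (1.70 to 3.20 FPKM) did not overlap those of MFN2 WT (1.20 to 1.34 FPKM), which held in this direction for 0.656% of all genes. *Gfra1* and *Nanos3* were also higher in 4 of 4 pairs, with mean changes of 0.13 (95% interval -0.19 to 0.46) and 0.34 (-0.01 to 0.69). The adjusted p over the 9 members lay between 0.57 and 0.97. The intervals still allow a mean change of up to 1.04 for *Lin28a* and down to -0.79 for *Id4*.

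**Figure D4:**
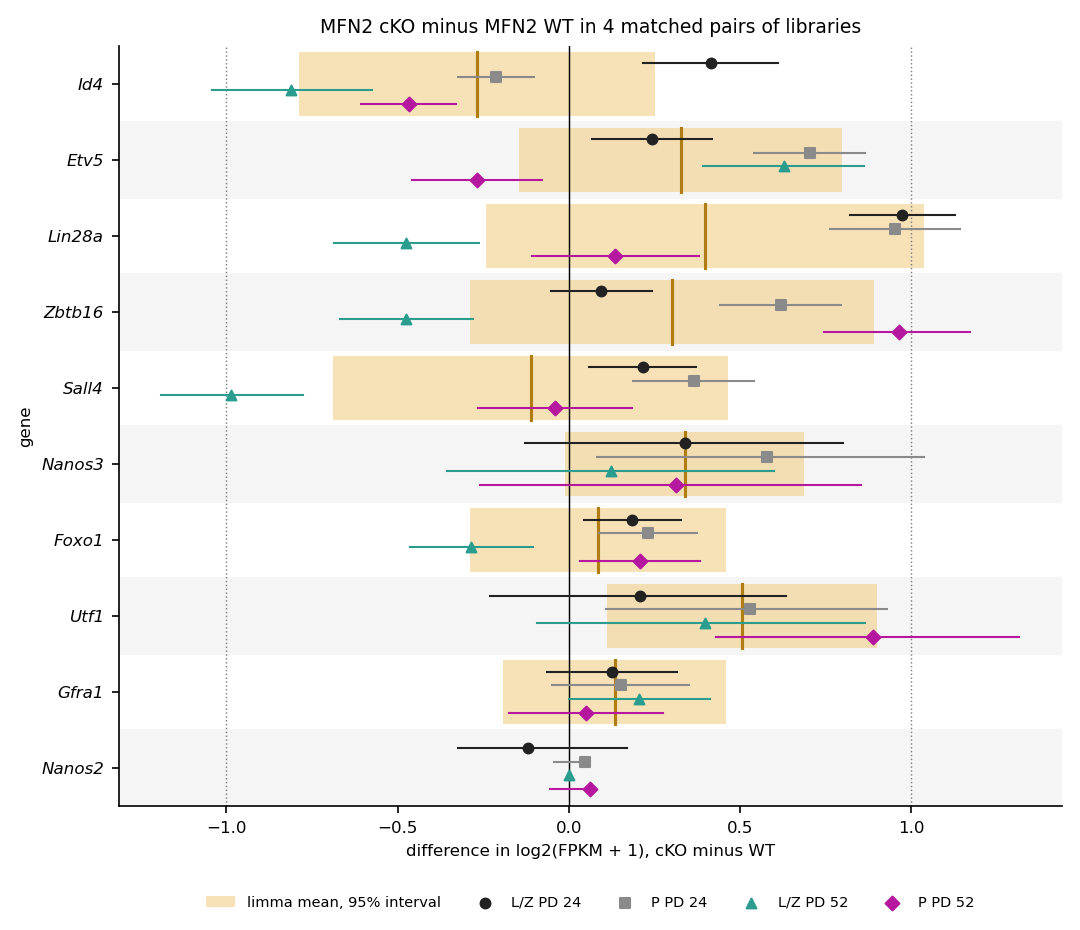
Difference in log2(FPKM + 1), MFN2 cKO minus MFN2 WT (horizontal axis), for each of the 10 genes (vertical axis). Points are the 4 pairs with their 95% counting intervals, the band is the limma mean with its 95% interval, and dotted lines mark a 2-fold change; for *Lin28a* the PD 24 pairs lie at 0.97 and 0.95 and the PD 52 pairs at -0.48 and 0.14.

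Markers of other cells also moved with genotype. The 8 Leydig cell genes had mean changes above 0, 4 of them called, and summed to 20.7 to 261 FPKM in MFN2 WT and 102 to 666 in MFN2 cKO. Macrophage genes summed to 7.30 to 57.3 and 22.7 to 265 FPKM, with 0 of 8 called. No gene of either list was at 0 in a library. Spermatid genes, 0 of 10 called, were lower in MFN2 cKO for 10 of 10 genes in both PD 24 pairs (median changes of -2.39 in L/Z and -2.48 in P), higher for 10 of 10 in L/Z at PD 52 (0.50) and lower for 9 of 10 in P at PD 52 (-0.83). Genes of differentiating spermatogonia, 0 of 10 called, had median changes of 0.28 in L/Z and 0.21 in P at PD 24, and of -0.95 in L/Z and -0.79 in P at PD 52. Sertoli cell genes, 0 of 12 called, had median changes of -0.38, 0.20, 0.65 and -0.84 in the same order, and 12 of 12 were lower in P at PD 52. The part of these cells in the member values was not tested.

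The third comparison asked how the genes differed between PD 52 and PD 24, with the genotype-and-stage pair as a block. Of the 9 tested members 1 was called lower, against 5.41% of all genes. That gene, *Foxo1*, fell by 0.68 ± 0.16 (SE, 4 pairs; limma, adjusted p = 0.036), with FPKM ratios from 0.316 to 0.563. Its PD 52 libraries (1.00 to 1.49 FPKM) all lay below its PD 24 libraries (2.10 to 3.17 FPKM), as did those of 6.45% of all genes. Without the L/Z MFN2 cKO, L/Z MFN2 WT or P MFN2 cKO pair it was no longer called (limma, adjusted p = 0.091, 0.12 and 0.13), nor was it with no FPKM filter (0.096). Spermatid genes were higher at PD 52 for 10 of 10 genes in each of the 4 pairs, 9 of them called, and summed to 92.1 to 2272 FPKM at PD 24 and 1982 to 18858 at PD 52. Sertoli cell genes had a median change below 0 in each pair, with 7 of 12 called lower, and summed to 237 to 906 FPKM at PD 24 and 29.7 to 737 at PD 52. Peritubular myoid genes, 2 of 5 tested called lower, summed to 37.8 to 168 FPKM at PD 24 and 11.3 to 61.5 at PD 52. Genes of differentiating spermatogonia, 1 of 10 called lower, had mean changes below 0 for 9 of 10, with a median of -0.71. The part of these cells in the fall of *Foxo1* was not tested.

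*Zbtb16* and *Sall4* were lower at PD 52 in 4 of 4 pairs and were not called, with mean changes of -0.59 ± 0.16 (limma, adjusted p = 0.051) and -0.79 ± 0.22 (limma, adjusted p = 0.059). Both were called in limma-voom, and with total-read scaling, which moved the median of all genes by -0.15. Neither was called with no filter (limma, adjusted p = 0.11 and 0.13) or with a pseudocount of 0.1 (0.060 for both), and without the pair block *Sall4* was called (0.047) and *Zbtb16* was not (0.10). *Lin28a* was also lower in 4 of 4 pairs, with a mean of -0.64 and an interval from -1.30 to 0.02. *Gfra1* was higher in 4 of 4 pairs, by 0.12 to 0.22, with a mean of 0.16 from -0.16 to 0.49. The largest falls were in L/Z of MFN2 cKO, where *Lin28a* was at 0.296, *Sall4* at 0.241 and *Foxo1* at 0.316 times the PD 24 level. In that pair the summed spermatid genes went from 330 to 18858 FPKM and the Sertoli genes from 237 to 82.1 FPKM. Genes of differentiating spermatogonia were lower for 9 of 10, with a median change of -1.75, against -0.69 for the 10 members. Leptotene and zygotene genes (9 of 12 lower, -0.71), peritubular myoid genes (5 of 6, -0.97) and Leydig cell genes (7 of 8, -0.73) fell too. Macrophage genes were higher for 7 of 8 (0.43). The part of these cells in the falls was not tested.

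**Figure D5:**
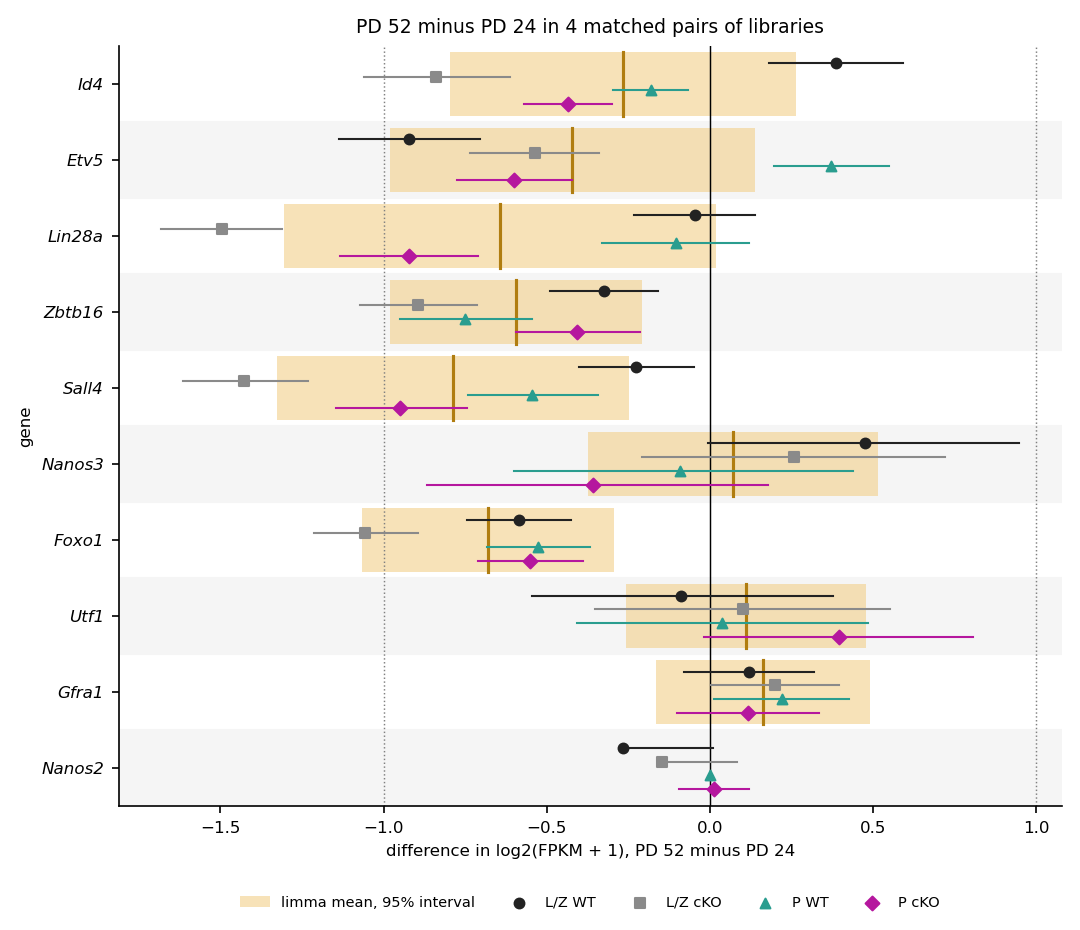
Difference in log2(FPKM + 1), PD 52 minus PD 24 (horizontal axis), for each of the 10 genes (vertical axis). Points are the 4 pairs with their 95% counting intervals, the band is the limma mean with its 95% interval, and dotted lines mark a 2-fold change; *Foxo1*, *Zbtb16*, *Sall4* and *Lin28a* lie below 0 in all pairs.

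Whether the genotype change differed between the ages was tested as an interaction, with 2 pairs at each age and 2 residual degrees of freedom. None of the 9 tested members was called, against 0.0142% of all genes (3 genes), and at an unadjusted p under 0.05 there was 1 member, against 12.5% of all genes. That was *Lin28a*, with a difference of -1.13 ± 0.30 (limma, adjusted p = 0.23). Its genotype change was 0.97 and 0.95 at PD 24 and -0.48 and 0.14 at PD 52. Limma-voom on recovered reads called 0 members.

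Among 20 other genes of undifferentiated spermatogonia, 12 were tested. In P against L/Z, 2 were called lower and 0 higher, a share close to the 16% of all genes called lower. These were *Sox3*, a transcription factor of committed spermatogonia, and *Ret*, the kinase partner of GFRA1, which was named after its values were seen. *Ret* was at 1.45 to 3.39 FPKM in L/Z and 0.212 to 1.49 FPKM in P. *Sox3* was at 3.35 to 12.8 FPKM in L/Z and 3.27 to 8.20 FPKM in P. By genotype 0 of the 12 were called. With age 1 was called lower, *Egr2*, a zinc finger factor induced by growth signals, named after its values were seen, at 5.34 to 7.64 FPKM at PD 24 and 0.688 to 1.77 FPKM at PD 52. Markers of rare spermatogonia were near 0, with *Pax7* at no more than 0.0723, *Eomes* at no more than 0.240 and *T* at no more than 0.560 FPKM, *Eomes* being named after its values were seen.

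Of 8 genes for signals of the niche, 3 were tested, *Kitl* at 0.418 to 6.79 FPKM, *Csf1* at 0.531 to 7.46 and *Cxcl12* at 0.249 to 3.87. *Gdnf*, the ligand of GFRA1, was at 0.279 to 0.615 FPKM and was likewise named later. *Kitl*, the ligand of KIT, was called higher in P and lower at PD 52, and *Csf1*, a growth factor for macrophages and spermatogonia, was called lower in P and lower at PD 52. Of 10 genes of differentiating spermatogonia, 0 were called by genotype or stage and 1 with age. *Kit*, which marks the step out of the undifferentiated state, was at 2.07 to 8.57 FPKM and was named after its values were seen. *Dmrtb1* reached 309 to 435 FPKM, far above any of the 10 members.

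Over the 8 libraries, the genes whose log2(FPKM + 1) was most like that of *Zbtb16*, among 9191 protein-coding genes, were *Trim71* (Pearson r = 0.98), *Ncapg2* (0.97) and *Dmtf1* (0.96). *Trim71* was at 0.875 to 5.12 FPKM. Those most like *Gfra1* were *Adam15* (0.98), *Piga* (0.98) and *Cul4b* (0.98). Within the 10, *Lin28a* and *Sall4* had an r of 0.87, *Zbtb16* and *Lin28a* 0.86, *Zbtb16* and *Sall4* 0.84, and *Gfra1* and *Nanos3* 0.88, whereas *Id4* and *Gfra1* had -0.97. These describe 8 libraries of differing stage and age, which the genes share.

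Of the members, 6 overlap an annotated gene on the opposite strand in their exons, and the library kit named in the labels is not described as strand-specific. The overlap covered 2.13% to 9.50% of the exon bases for *Id4*, *Lin28a*, *Sall4*, *Foxo1* and *Gfra1*, and 49.0% for *Nanos2*. Those opposite genes were at no more than 0.302 FPKM in any library, and reads from the 2 strands cannot be told apart. *Etv5* shared 24.5% of its 50-base transcript windows with *Gm4798*, and the effect of this on its values was not tested. *Utf1* and *Nanos3* shared 0, but had 22 to 57 and 14 to 48 reads per library, against 116 to 589 for *Etv5*.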

How the data were processed

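RNA from 8 spermatocyte libraries, 1 for each combination of stage, genotype and age, was used. Cells were frozen, RNA was extracted with Trizol, and libraries were made with the NEBNext Ultra kit. The authors sequenced paired-end reads and deposited FPKM values made with Novomagic, not log-transformed, for 54532 genes, with no gene removed. The deposited FPKM carry median-of-ratios size factors, because the median ratio to the geometric mean was the same, 1.02, in all 8 columns. The deposited gene lengths are in bases, a unit other than expression. The study states DESeq2 as its test, which was not used here. The submitters' processing notes name CASAVA 1.4, Bowtie 0.12.2, mm8 and mm9, without a role. Coordinates in the table follow GRCm38: 98.3% of the 54495 identifiers found in GENCODE vM21 had the same start and end.

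FPKM multiplied by gene length gave whole multiples of 1 step in every library (100% within 0.01), from which reads were recovered, 14340665 to 20379950 per library. Tests used limma 3.58.1 in R 4.3.3 on log2(FPKM + 1), with variance trend, two-sided, for 21175 genes above 1 FPKM in at least 1 library, with Benjamini-Hochberg adjustment over all of them. Matched pairs entered as a block. A pair counted as changed at 2-fold or more on that scale, with FPKM above 1 in at least 1 of its libraries. Counting intervals are 95% exact binomial intervals of the reads. With 1 library per group, p-values measure the spread between pairs, not between replicates of a group. Fits and the recovery of reads were tested on simulated data. The changes planted there were larger than most changes of the members. They sat in genes with more reads on average than *Nanos2*, *Nanos3* and *Utf1*, so the check does not cover such genes or smaller changes.

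The 10 members, the other gene lists and the rule for named genes were chosen with earlier results of these data known. Named are all members, *Mfn2*, at most 4 genes of highest mean FPKM per list with markers at 0, and the 3 genes most like *Zbtb16* and *Gfra1*, among genes of at least 5 FPKM in 1 library. Others are said to be chosen later. Each result was also computed with a pseudocount of 0.1, without the FPKM filter, with median-of-ratios scaling, with limma-voom on recovered reads, with an additive fit and with each pair left out. Scaling by total reads was added after seeing the data, because the deposited values turned out to be median-of-ratios scaled already.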

Additional observations from a re-analysis of the deposited data

Results flagged for a closer look

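For *Nanos3*, the change from PD 24 to PD 52 went in opposite directions in the 2 stages. On the log2(FPKM + 1) scale it was -0.09 in MFN2 WT and -0.36 in MFN2 cKO in P, and 0.48 and 0.26 in L/Z, so the mean change in P minus that in L/Z was -0.59. All 4 counting intervals include 0, on 14 to 48 reads per library, and the difference between stages was not tested.

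For *Sall4*, the change from MFN2 WT to MFN2 cKO went in opposite directions at the 2 ages. It was 0.22 in L/Z and 0.37 in P at PD 24, and -0.99 and -0.04 at PD 52, a difference of -0.80. The opposite signs are untested as such. The interaction term of limma gave an adjusted p of 0.45 for this difference, and the P pair at PD 52 has a counting interval from -0.26 to 0.19.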

How the results depend on the processing

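The deposited values were median-of-ratios scaled already, so that alternative divided all libraries by 1 constant and tested no other scaling. It left the counts called as they were within 1.5 times, except for the interaction, which went from 3 genes to 30. No paired analysis by replicate number was possible because each group has 1 library, and the blocks are matched libraries of stage, genotype or age.

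By genotype, 29 genes were called. The count was 7 with a pseudocount of 0.1, 0 with no FPKM filter, 114 in limma-voom, 3 without the pair block and 0 to 2 with a pair left out. By stage, 6013 genes were called, against 3010 with no filter and 2369 to 5953 with a pair left out, and 6 members, against 2 with no filter and 1 to 4 with a pair left out. By age, 3669 genes were called, against 791 with no filter and 0 to 4905 with a pair left out, 0 of them without the P MFN2 cKO pair. The 1 member called by age became 3 with total-read scaling, 0 with no filter, 3 in limma-voom, 2 without the pair block and 0 to 2 with a pair left out. The interaction called 3 genes, against 74 with a pseudocount of 0.1, 0 with total-read scaling, 0 with no filter and 624 in limma-voom. With no filter, more genes are tested. The cause of the other moves was not tested.

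Genes changed at least 2-fold between genotypes numbered 1852, 1354, 1420 and 1917 in L/Z and P at PD 24 and in L/Z and P at PD 52, and 3125, 2330, 2683 and 3364 with a pseudocount of 0.1. Members changed at least 2-fold then numbered 1, 1, 2 and 2 in place of 0. With total-read scaling 1 member passed in P at PD 24 and 1 in L/Z at PD 52. That scaling moved the median of all genes by -0.15 for age, by 0.18 for the P pair at PD 24 and by -0.10 for the L/Z pair at PD 52.

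The sign turned for *Sall4* by genotype without the L/Z PD 52 pair (-0.27 to 0.18 over the pairs left out), for *Nanos3* by age without the L/Z MFN2 WT pair (-0.063 to 0.21 over the pairs left out) and with total-read scaling (-0.078), for *Utf1* by age with total-read scaling (-0.016), and for *Zbtb16* in the interaction with a pseudocount of 0.1 (0.0037). None of these effects was called in any fit. Reads per gene limit the precision for *Nanos2*, *Nanos3* and *Utf1*.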
